A study of Arabidopsis thaliana with 9 samples.

Results

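The deposited gene tables held 27218 genes. Of these, 105 carried the words pectin methylesterase or pectinesterase in their description or were one of 5 loci added by name. Among the 5, only PME5 (AT5G47500), described as a pectin lyase-like superfamily protein, lacked these words. Enzymes described in other words and not named would be left out, so the list need not be the whole family. Of the 105 genes, 51 had at least 90 counts summed over the 9 libraries. These 51 genes are described here. They divide, by description and RefSeq coding length, into 23 pectin methylesterases of at least 450 residues, long enough to carry an N-terminal region resembling an inhibitor, 3 shorter pectin methylesterases, 22 inhibitor proteins and 3 genes with other domains. The last of these, AT4G02370 and AT1G02816 with a DUF538 domain and AT5G66670 with a DUF677 domain, carry only the word pectinesterase in their descriptions. The other 54 rows fell under the minimum and were not tested here, and 14 of them had no count in any library. PE11 (AT2G21610), with 92 counts, was the member just inside the minimum, and AT2G47050, with 75 counts, was the gene just outside it.

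RNA was sequenced from whole Arabidopsis thaliana seedlings, 2 weeks old, of 3 genotypes with 3 libraries each: wild type (WT), plants overexpressing the SR45a-1a form of the splicing regulator gene SR45a (SR45a-1a-OE), and sr45a plants. All 9 libraries came from seedlings held at 45 °C for 3 h, so each comparison is between genotypes after heat and none is between heated and unheated plants. The labels speak of overexpression lines but give neither the promoter, the number of lines nor the sr45a allele. Nothing in the labels says that libraries of a group came from separately grown plants, so the tests rest on a spread between libraries that may be technical.

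Pectin methylesterases remove methyl groups from homogalacturonan, the main pectin of the primary cell wall, and so change how it binds calcium and how open it is to pectin-degrading enzymes. Most of the plant enzymes are made with an N-terminal region that is cut off before the enzyme reaches the wall, and a separate family of small inhibitor proteins binds and blocks them. The same protein fold is shared by inhibitors of invertase, so some of the 22 inhibitor genes may act on invertase, as their description, plant invertase/pectin methylesterase inhibitor superfamily, allows.

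A stretch around the catalytic aspartate was searched for in the coding sequences. It was found in the coding sequence of 22 of the 23 long enzymes, in 2 of the 3 short ones, and in none of the 22 inhibitors or the 3 genes with other domains. AT4G03930 and PE11 lacked it under the pattern searched. The aspartate codon was GAT in 17 of the 24 genes and GAC in the others. The stretch is shown, as 30 bases of coding sequence read 5′ to 3′ from the RefSeq TAIR10.1 genome with the aspartate codon in capitals, for the 10 enzymes that were lower in SR45a-1a-OE than in WT and for PME17, the enzyme that was higher.
AT3G49220: atctacggtacagtcGATtttatctttggt
PME3 (AT3G14310): atcgccggaaccgttGACttcatcttcgga
AT3G10720: atatatggtaccgtcGATtttatattcgga
PME44 (AT4G33220): atcacgggaacagtaGATtttatatttggg
AT5G04960: atcctcggaaccgttGATtttatatttgga
AT1G02810: gtctatggaacggtcGATtttatatttgga
ATPMEPCRD (AT2G43050): atcaccggcaccgtcGATttcatattcgga
PME12 (AT2G26440): atttatggaaccattGATtatatctttgga
PME5 (AT5G47500): attgaaggctctatcGACtttatctttggt
PME41 (AT4G02330): atttatggaacagtcGATttcatattcggc
PME17 (AT2G45220): gtttatggaactgtcGATtttatcttcgga
Compared with PME3, the other sequences shown were the same at 19 to 25 of 30 bases, with PME5 lowest and ATPMEPCRD highest. The stretch lies at chr3:4772691-4772720 on the minus strand in PME3 and at chr5:19271937-19271966 on the minus strand in PME5. In AT3G10720 an intron splits it, so that it spans 274 bp of the genome. PME41 is named ATPMEPCRB in the deposited tables, and PME12 and PME17 are RefSeq synonyms for loci that the tables leave unnamed.

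Each library held 18036195 to 21864604 gene counts. SR45a itself had a mean of 418 ± 16.0 normalised counts (CPM, counts scaled to library size; SD, n = 3) in WT, of 1094 ± 81.6 in SR45a-1a-OE and of 4.57 ± 2.69 in sr45a, which is the order that the labels give. On the first principal component of all genes, which held 36.6% of the variance, SR45a-1a-OE replicate 3 lay at 16.2 and the other two SR45a-1a-OE libraries at 48.3 and 47.0. On the same axis sr45a replicate 3 lay at 4.70, and the other two sr45a libraries at -25.3 and -22.2, close to WT, which lay at -25.3 to -20.9. The counts of genes called, and the fold changes of some genes, are therefore also given without both of these replicates.

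The 51 genes covered a wide range of levels, given here as deposited FPKM (fragments scaled to gene length and library size). Their mean over the 9 libraries ran from 0.333 in AT3G60730 to 236.9 in AT5G62350, an inhibitor protein. A mean of at least 10 FPKM was reached by 20 genes, 23 lay between 1 and 10, and 8 lay under 1. AT5G62350 alone took 27.3% to 30.9% of the summed FPKM of the 51 genes in each library. The DUF538 gene AT4G02370 came next at 75.6 FPKM, followed by the enzymes AT3G49220 at 67.3, PME3 at 50.5 and PME17 at 33.9. The median over genes was 4.98 FPKM for the 23 long enzymes and 4.27 for the 22 inhibitors.

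**Figure D1:**
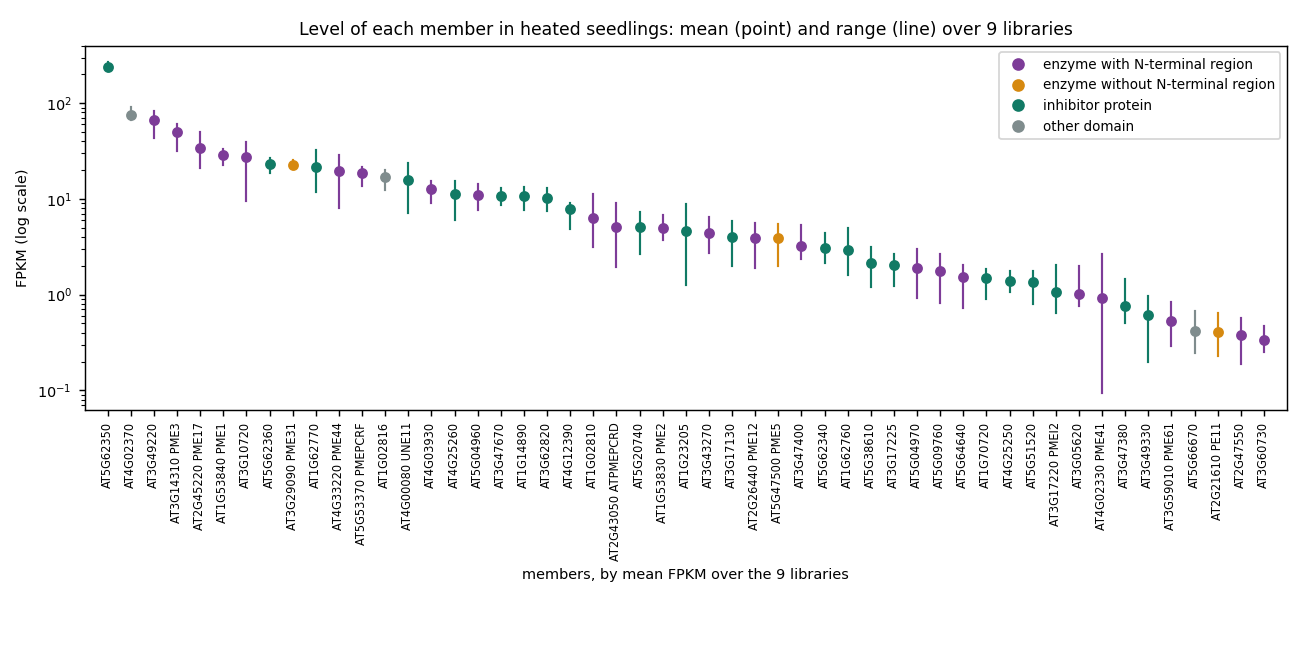
Mean FPKM over the 9 libraries (points, log scale) and the lowest to highest library (lines) for each of the 51 genes, ordered by mean and coloured by class. Levels run from 236.9 FPKM for the inhibitor AT5G62350 to 0.333 FPKM for AT3G60730, and the enzymes and inhibitors are mixed along the order.

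In SR45a-1a-OE against WT, 10 of the 26 enzymes fell, 1 rose and 15 did not pass. Of the 51 genes, all of which were tested, 4 rose and 14 fell, and 33 did not pass (edgeR quasi-likelihood test, Benjamini-Hochberg adjusted p under 0.05 over all 20103 genes tested), which is 35.3% of them beside 15.3% of all genes tested. Genes that rose made up 6.76% of all genes tested and genes that fell 8.59%. Among the 23 long enzymes 1 rose and 9 fell, with a median log2 fold change of -0.33, among the 3 short ones 1 fell, among the 22 inhibitors 1 rose and 4 fell, with a median of -0.11, and among the 3 genes with other domains 2 rose. The median over the 51 genes was -0.20, with 32 negative values, and 0.01 over all genes tested. The 3 libraries of SR45a-1a-OE did not overlap those of WT in 26 of the 51 genes, 16 of them lower and 10 higher, while 35.5% of all genes tested did not overlap.

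The count of genes called depended on single libraries. It was 8 without WT replicate 2, 11 without WT replicate 3 and 9 when SR45a-1a-OE replicate 1 was left out, and the same fits called 5.21%, 9.03% and 4.80% of all genes tested. Without replicate 3 of both SR45a-1a-OE and sr45a it was 22, of which 6 were higher and 16 lower, while 22.3% of all genes tested were then called.

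**Figure D2:**
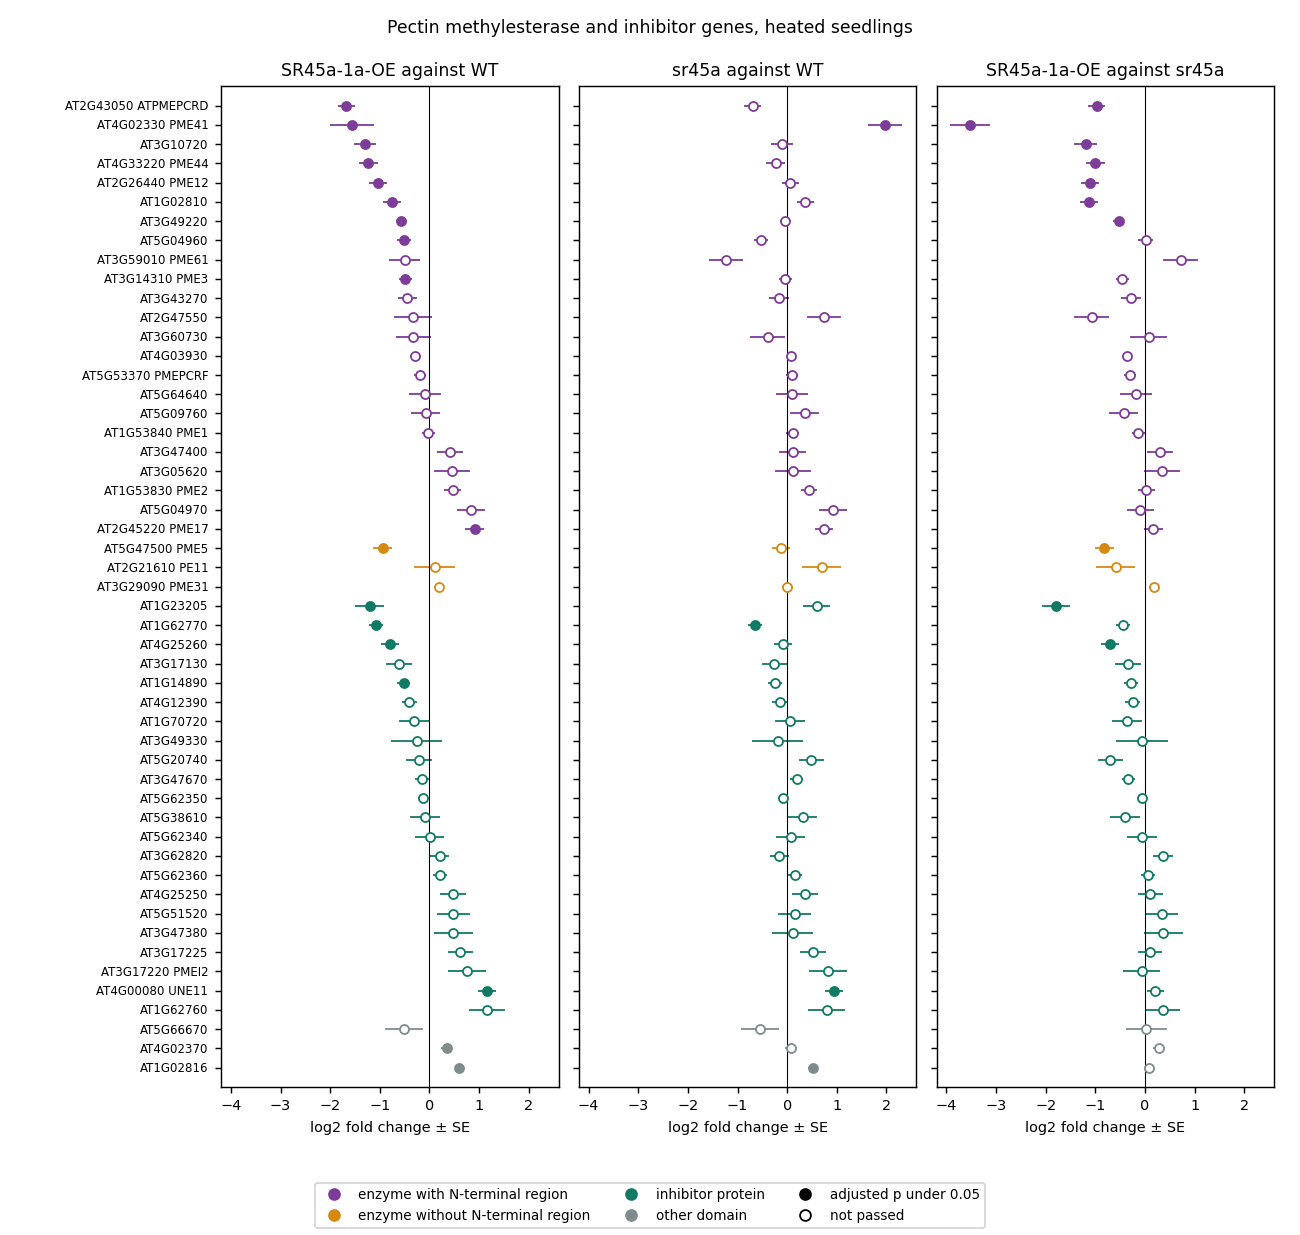
Log2 fold change ± SE of each of the 51 genes in the 3 comparisons, from the edgeR fit over all genes and 9 libraries; filled points have an adjusted p under 0.05 and colours mark the class. In the first panel 14 genes lie filled below 0 and 4 above, in the second 1 below and 3 above, and in the third 10 below and none above.

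In whole seedlings, fewer cells of a type and less RNA per cell cannot be told apart. Marker genes of green shoot, 5 genes, summed to 23423 to 27252 CPM in WT, 24238 to 29542 in SR45a-1a-OE and 26581 to 29533 in sr45a, and 0 of 5 were called by edgeR in either comparison with WT, with 1 at an unadjusted p under 0.05 in each. Markers of root, 9 genes of which 8 were tested, summed to 288 to 317 CPM in WT, 207 to 343 in SR45a-1a-OE and 195 to 241 in sr45a. Of the 8 tested, 2 rose (THAS1 and MRN1) and 2 fell (PHT1;1 and PRP3) in SR45a-1a-OE, and 2 fell (PHT1;1 and CYP708A2) in sr45a. Over all genes tested, 15.3% and 1.62% were called in these comparisons. PHT1;1 alone stood at 143 to 147 CPM in WT, so the root sum is weighted toward this gene. Flower and pollen markers, 5 genes, summed to at most 1.06 CPM in any library and none was abundant enough to be tested. The seed list held 3 genes, the storage protein genes CRA1 and CRU3 and the isocitrate lyase gene ICL, and all 3 rose in sr45a. Their sum went from 10.4 to 18.3 CPM in WT to 126 to 275 CPM in sr45a, and lay at 13.4 to 32.6 CPM in SR45a-1a-OE. Most of it was ICL, with means of 14.0 CPM in WT and 173 in sr45a. CRA1 went from a mean of 0.532 to 12.8 CPM and CRU3 from 0.0757 to 12.2. No marker was at 0 in all libraries, and the part of these lists in the results on pectin genes was not tested.

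Summed over the class, the long enzymes gave 337, 343 and 309.6 FPKM in the WT libraries, 216, 273 and 250.1 in SR45a-1a-OE and 361, 332 and 329 in sr45a. Every SR45a-1a-OE library was below every other library. The inhibitors summed to 368, 429 and 390.5 FPKM in the WT libraries, 341, 361 and 346 in SR45a-1a-OE and 399, 380.3 and 391 in sr45a, and in FPKM every SR45a-1a-OE library was again the lowest. In CPM the inhibitor sums overlapped, at 417 to 431 in SR45a-1a-OE against 425 to 507 in WT and 430.3 to 475 in sr45a, while the sums of the long enzymes stayed apart. The short enzymes showed no such separation, with means of 26.7 ± 0.717 in WT, of 26.5 ± 1.72 in SR45a-1a-OE and of 26.8 ± 1.53 in sr45a (SD, n = 3 each). These sums are dominated by a few abundant genes and were not tested.

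Among the abundant enzymes, AT3G49220 stood at 301, 328 and 278 CPM in WT, at 187, 201 and 226 in SR45a-1a-OE and at 321, 288 and 274 in sr45a. All SR45a-1a-OE libraries were below all others. Against WT the log2 fold change was -0.56 (standard error 0.11, edgeR adjusted p = 0.00937) in SR45a-1a-OE and -0.04 (standard error 0.11, adjusted p = 0.903) in sr45a, and the first call was lost without WT replicate 2 or SR45a-1a-OE replicate 1. PME3, the enzyme that in Arabidopsis is known to interact with a cellulose-binding protein of a parasitic nematode, stood at 130.3, 127 and 134 CPM in WT, at 77.8, 113 and 88.6 in SR45a-1a-OE and at 140.3, 127 and 115 in sr45a. SR45a-1a-OE replicate 2 was close to sr45a replicate 3, and all SR45a-1a-OE libraries were below WT. Its log2 fold change was -0.49 (standard error 0.13, edgeR adjusted p = 0.0299), and the call was lost under the replicate block and without any one of the WT libraries or without SR45a-1a-OE replicate 1 or 3 (highest adjusted p = 0.125).

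A larger fall was seen in AT3G10720 and PME44. AT3G10720 stood at 103, 118 and 97.1 CPM in WT, at 31.1, 35.2 and 62.5 in SR45a-1a-OE and at 119, 90.6 and 84.9 in sr45a. WT and sr45a overlapped and lay above SR45a-1a-OE, in which replicate 3 was the highest. Its log2 fold change was -1.30 (standard error 0.23, edgeR adjusted p = 0.00566) and became -1.67 without replicate 3 of both groups. PME44 stood at 85.4, 102 and 83.9 CPM in WT, at 30.5, 32.4 and 52.8 in SR45a-1a-OE and at 92.0, 73.9 and 65.3 in sr45a. The order of the libraries was the same as in AT3G10720 within SR45a-1a-OE and within sr45a, and the log2 fold change was -1.23 (standard error 0.20, adjusted p = 0.00457). Both calls held under each of the 18 alternatives that changed the normalization, filter, test, unit, block or libraries. PME44 overlaps AT4G33230 on the opposite strand, which had at most 1 count per library.

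In the fit of all 9 libraries the largest fall against WT was that of ATPMEPCRD (chr2:17902370-17904443, plus strand); without replicate 3 of both groups PME41 was lower still, at -2.23 beside -1.83. It stood at 17.1, 16.8 and 12.8 CPM in WT, at 4.08, 4.67 and 5.89 in SR45a-1a-OE and at 11.1, 8.79 and 8.91 in sr45a. The 3 genotypes did not overlap, with sr45a between the others. This gave a log2 fold change of -1.67 (standard error 0.18, edgeR adjusted p = 0.00138) in SR45a-1a-OE, and -0.70 (standard error 0.17, adjusted p = 0.0663) in sr45a, which did not pass. The sr45a value passed under 4 of the 18 alternatives, among them DESeq2 and the fit without SR45a-1a-OE replicate 3.

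PME12 stood at 9.92, 9.65 and 9.66 CPM in WT, at 4.28, 4.35 and 5.57 in SR45a-1a-OE and at 11.9, 10.9 and 7.71 in sr45a. All SR45a-1a-OE libraries were the lowest, and the log2 fold change was -1.04 (standard error 0.18, edgeR adjusted p = 0.00522). PME5, a short enzyme whose overexpression in Arabidopsis is known to soften the shoot meristem and alter organ initiation, stood at 6.65, 7.22 and 6.78 CPM in WT, at 3.68, 2.91 and 4.13 in SR45a-1a-OE and at 6.66, 7.52 and 4.78 in sr45a. It was lowest in the SR45a-1a-OE libraries, with a log2 fold change of -0.94 (standard error 0.19, adjusted p = 0.0103). ATPMEPCRD, PME12 and PME5 kept their calls against WT under each of the same 18 alternatives.

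AT1G02810 stood at 12.6, 14.7 and 14.3 CPM in WT, at 7.21, 7.63 and 9.65 in SR45a-1a-OE and at 16.1, 23.1 and 14.3 in sr45a. SR45a-1a-OE lay below the other groups, with a log2 fold change of -0.76 against WT (standard error 0.18, edgeR adjusted p = 0.0187). AT5G04960 stood at 30.0, 27.6 and 31.4 CPM in WT, at 22.8, 22.7 and 16.8 in SR45a-1a-OE and at 24.2, 19.1 and 18.4 in sr45a. It was lower than WT in every library of both other genotypes, with a log2 fold change of -0.52 (standard error 0.14, adjusted p = 0.0317) in SR45a-1a-OE and -0.53 (standard error 0.14, adjusted p = 0.0974) in sr45a. The SR45a-1a-OE call was lost in AT1G02810 without WT replicate 2 or 3 or SR45a-1a-OE replicate 1 or 2. In AT5G04960 it was lost without any single WT library or SR45a-1a-OE replicate 1 or 3. The sr45a value of AT5G04960 passed under 3 of the 18 alternatives, among them DESeq2 and the fit without SR45a-1a-OE replicate 3.

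PME41, known in Arabidopsis for a part in the response to chilling, was the member whose level differed most between the genotypes, and its counts were low. It had 19, 26 and 23 counts in WT, only 4, 5 and 13 in SR45a-1a-OE, and 101, 94 and 52 in sr45a. The 3 genotypes did not overlap, with SR45a-1a-OE lowest and sr45a highest. The log2 fold change was -1.56 (standard error 0.45, edgeR adjusted p = 0.0379) for SR45a-1a-OE against WT, 1.97 (standard error 0.34, adjusted p = 0.0142) for sr45a against WT and -3.53 (standard error 0.40, adjusted p = 0.00107) for SR45a-1a-OE against sr45a. The last of these kept its call under each of the 18 alternatives. The first was lost under 8 of them, among them the replicate block, limma on log2(FPKM + 1), each of the WT libraries left out in turn and SR45a-1a-OE replicate 1 or 2 left out, and lay between -2.23 and -0.39. The second was lost without any one WT library and without sr45a replicate 1 or 2, with values between 0.998 and 2.21.

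PME17 was the one enzyme that rose in SR45a-1a-OE. It is known in Arabidopsis for its induction by fungal infection and for its cleavage by a subtilase in roots. It stood at 44.5, 41.2 and 47.1 CPM in WT, at 88.9, 95.9 and 64.4 in SR45a-1a-OE and at 61.1, 62.9 and 97.2 in sr45a. Every library of both other genotypes was above WT, and the replicates numbered 3 lay toward opposite sides of their groups. The log2 fold change was 0.91 (standard error 0.19, edgeR adjusted p = 0.0102) in SR45a-1a-OE and 0.74 (standard error 0.19, adjusted p = 0.0798) in sr45a. Among the 18 alternatives, the SR45a-1a-OE call was lost only without WT replicate 2 (edgeR adjusted p = 0.0502). Requiring in addition a log2 fold change of at least 1, a setting outside those 18, also removed it. The sr45a value passed under 5 of the 18 alternatives, among them DESeq2 and the fit without SR45a-1a-OE replicate 3. Without replicate 3 of both groups, SR45a-1a-OE was above sr45a by 0.58 on the log2 scale (adjusted p = 0.00521), whereas with all libraries that difference was 0.17 (adjusted p = 0.603).

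**Figure D3:**
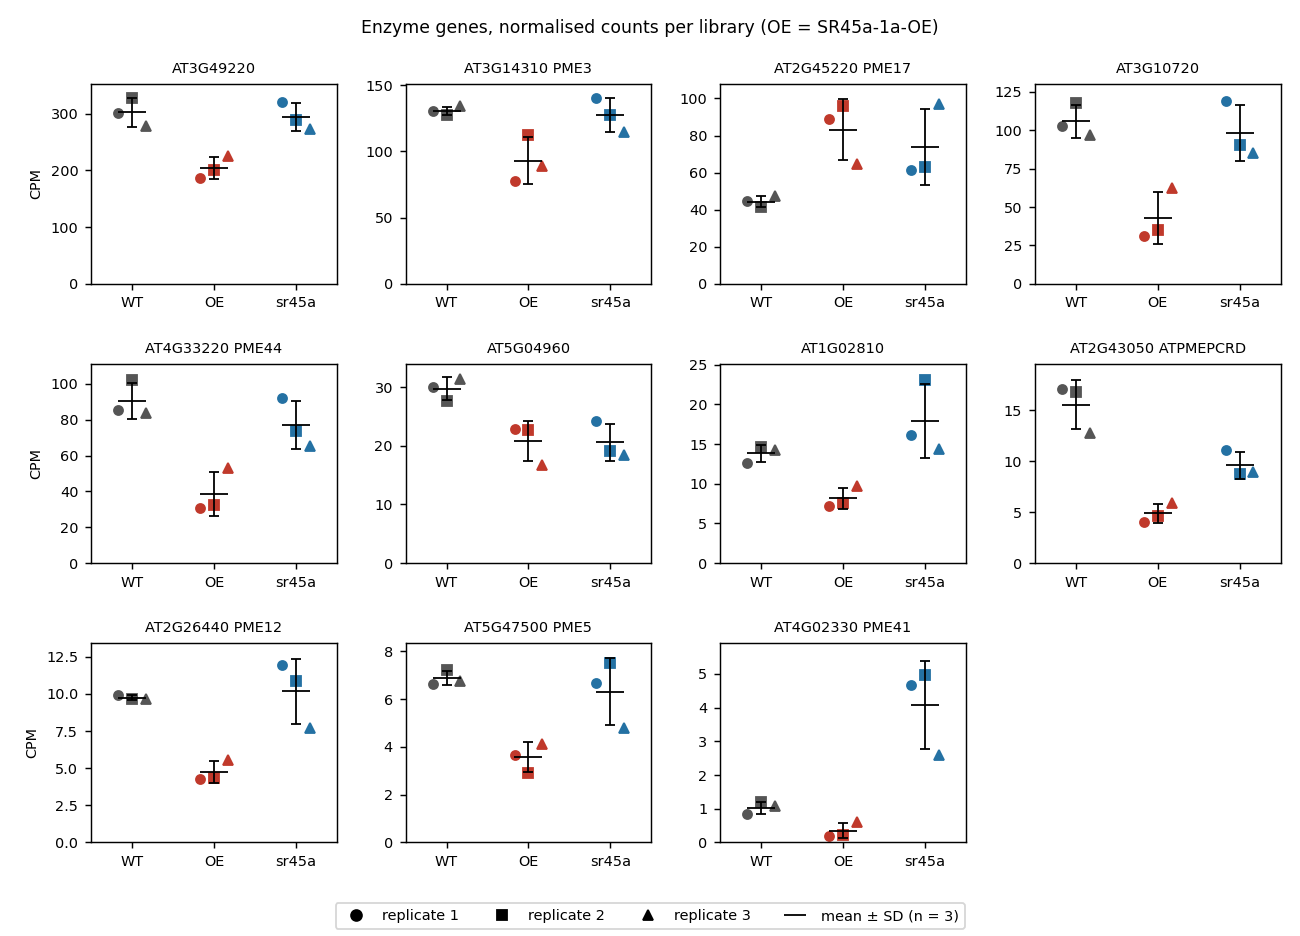
CPM in each library for the 11 named enzyme genes, with replicates 1 to 3 as separate symbols and lines for the mean ± SD (n = 3); axes start at 0. SR45a-1a-OE is lowest in 9 of the panels by its mean, PME17 is highest there, and PME41 is highest in sr45a at 4.08 CPM.

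The other enzymes did not pass against WT. PME1 (AT1G53840) was at 28.7 FPKM with a log2 fold change of -0.02 in SR45a-1a-OE (edgeR adjusted p = 0.924), and PMEPCRF was at 18.4 FPKM with -0.20 (adjusted p = 0.287). PME31, a short enzyme, was at 22.4 FPKM with 0.19 (adjusted p = 0.226). Values whose libraries did not overlap WT but missed the threshold were 0.47 in PME2 (adjusted p = 0.0807), -0.28 in AT4G03930 (adjusted p = 0.0923) and 0.83 in AT5G04970 (adjusted p = 0.067). AT5G04970 passed with DESeq2, without SR45a-1a-OE replicate 3 and without replicate 3 of both SR45a-1a-OE and sr45a. AT4G03930 shares 93.5% of its aligned coding sequence with AT1G11590, so its counts could be split between the pair in either direction, and AT1G11590 had 1 count in all. AT4G03930.1, its only listed transcript, was at 0 to 0.821 FPKM over the libraries, although the gene had 3792 counts in all. The reason for this mismatch was not tested.

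Among the inhibitor proteins, the most abundant did not pass in any comparison. AT5G62350 stood at 281, 329.9 and 308 CPM in WT, at 285, 285 and 272 in SR45a-1a-OE and at 299, 267 and 306 in sr45a. The groups overlapped, and the log2 fold change was -0.13 (standard error 0.10, edgeR adjusted p = 0.42) in SR45a-1a-OE and -0.08 (standard error 0.10, adjusted p = 0.751) in sr45a.

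AT1G62770 was lower than WT in both other genotypes. It stood at 27.9, 31.7 and 29.3 CPM in WT, at 15.5, 11.6 and 14.9 in SR45a-1a-OE and at 20.2, 21.2 and 15.6 in sr45a. The 3 genotypes did not overlap, although SR45a-1a-OE replicate 1 and sr45a replicate 3 were close. The log2 fold change was -1.08 (standard error 0.14, edgeR adjusted p = 0.00277) in SR45a-1a-OE, held under each of the 18 alternatives, and -0.64 (standard error 0.14, adjusted p = 0.0442) in sr45a, held under 7 of them.

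UNE11 (AT4G00080), an inhibitor-family gene named for unfertilized embryo sacs in its mutant, was higher than WT in both other genotypes. It stood at 6.96, 10.3 and 10.5 CPM in WT, at 22.1, 23.9 and 16.0 in SR45a-1a-OE and at 16.0, 18.6 and 19.0 in sr45a. Every library of the other genotypes was above WT. The log2 fold change was 1.16 (standard error 0.18, edgeR adjusted p = 0.00428) in SR45a-1a-OE, held under each of the 18 alternatives, and 0.95 (standard error 0.18, adjusted p = 0.0258) in sr45a, lost without any one library of WT or sr45a.

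AT4G25260, AT1G14890 and AT1G23205 fell in SR45a-1a-OE. AT4G25260 stood at 17.2, 22.2 and 22.0 CPM in WT, at 11.4, 9.21 and 14.7 in SR45a-1a-OE and at 23.4, 18.3 and 16.0 in sr45a, with SR45a-1a-OE below all other libraries. Its log2 fold change was -0.80 (standard error 0.19, edgeR adjusted p = 0.0169), but it overlaps OTP70 on the same strand, which had 105 to 180 counts per library, and reads of the 2 genes may not be told apart there. That call was lost without WT replicate 2 or 3 or SR45a-1a-OE replicate 1. AT1G14890 stood at 12.9, 13.7 and 15.0 CPM in WT, at 9.20, 9.81 and 9.98 in SR45a-1a-OE and at 13.6, 11.7 and 9.80 in sr45a. Only sr45a replicate 3 fell within the SR45a-1a-OE range, and the log2 fold change was -0.52 (standard error 0.14, adjusted p = 0.0257), lost under the replicate block, without any one WT library and without SR45a-1a-OE replicate 1 or 2. AT1G23205 stood at 4.83, 6.16 and 3.81 CPM in WT, at 2.34, 1.34 and 2.74 in SR45a-1a-OE and at 8.05, 8.95 and 5.33 in sr45a. SR45a-1a-OE was below all other libraries, with a log2 fold change of -1.20 (standard error 0.29, adjusted p = 0.0186), lost without WT replicate 1 or 2 or SR45a-1a-OE replicate 1.

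Counting AT5G62350, 17 inhibitors did not pass against WT in either genotype in the fit of all 9 libraries. AT1G62760 had the highest value among them, 1.16 on the log2 scale in SR45a-1a-OE (edgeR adjusted p = 0.0513), from 2.04, 2.67 and 2.09 CPM in WT, from 6.51, 5.74 and 2.97 in SR45a-1a-OE and from 2.54, 2.96 and 6.32 in sr45a. Replicate 3 was the lowest of SR45a-1a-OE and the highest of sr45a. AT1G62760 passed in SR45a-1a-OE against WT with no filter, with DESeq2 and in the fit of the 6 libraries compared. It also passed without SR45a-1a-OE replicate 3, without sr45a replicate 1 or 3, and without replicate 3 of both groups. PMEI2, whose protein is known to inhibit pectin methylesterases in vitro, was at 1.08 FPKM with 0.76 (adjusted p = 0.202). AT4G12390, which the deposited tables name PME1 and describe as a pectin methylesterase inhibitor, overlaps Hop3 on the opposite strand. Hop3 had 9163 to 20128 counts per library, and whether counting used strand was not given in the sources used here.

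The DUF538 genes were higher in SR45a-1a-OE. AT4G02370 stood at 67.1, 72.1 and 76.0 CPM in WT, at 101, 84.4 and 88.7 in SR45a-1a-OE and at 75.9, 67.5 and 83.1 in sr45a. SR45a-1a-OE was the highest group, with a log2 fold change of 0.35 (standard error 0.11, edgeR adjusted p = 0.049) that held under 9 of the 18 alternatives. AT1G02816 stood at 19.4, 20.0 and 21.9 CPM in WT, at 34.1, 29.0 and 30.2 in SR45a-1a-OE and at 28.1, 30.4 and 29.9 in sr45a. Both other genotypes were above WT in every library, by 0.60 (standard error 0.10, adjusted p = 0.00468) and 0.53 (standard error 0.10, adjusted p = 0.0221) on the log2 scale, the second lost under the replicate block and without any one library of WT or sr45a.

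**Figure D4:**
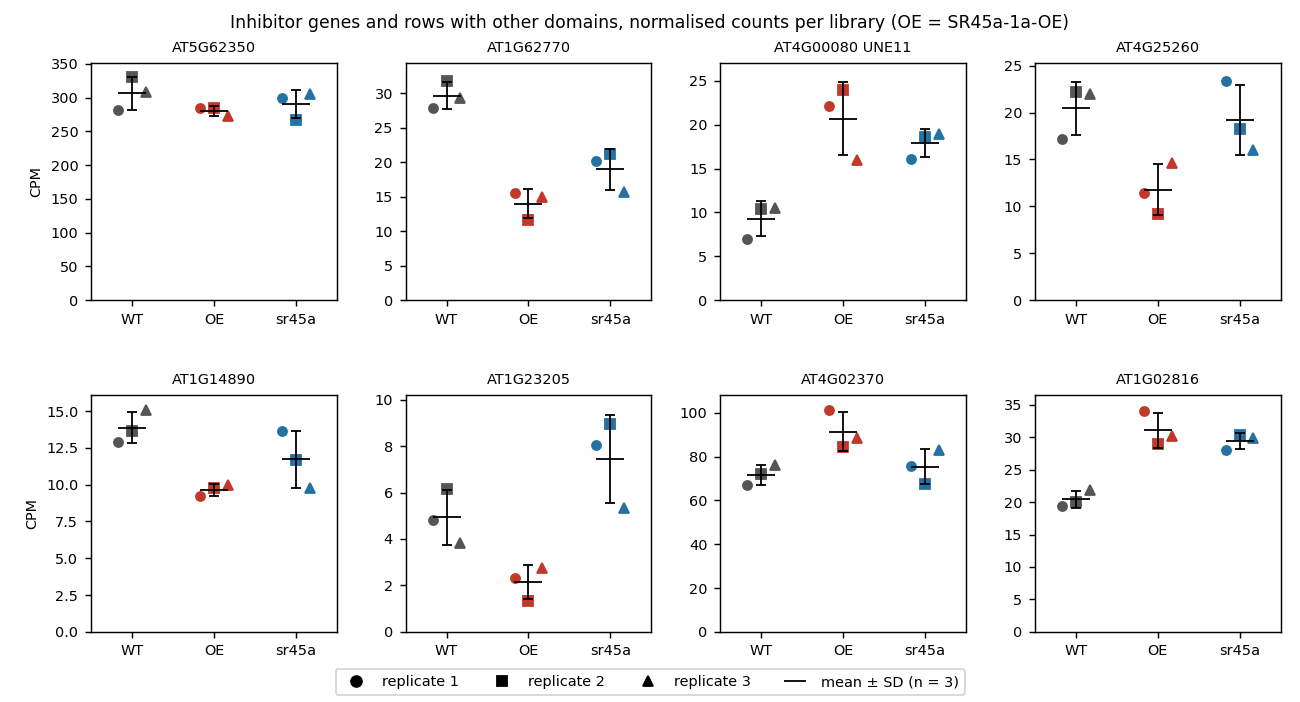
CPM in each library for the 6 named inhibitor genes and the 2 named DUF538 genes, with replicates 1 to 3 as separate symbols and lines for the mean ± SD (n = 3); axes start at 0. AT5G62350 overlaps between all groups at 267 to 329.9 CPM, while AT1G62770 lies below WT and UNE11 above WT in both other genotypes.

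In sr45a against WT few members passed. Of the 51 genes 3 rose (PME41, UNE11 and AT1G02816) and 1 fell (AT1G62770), which is 7.84% beside 1.62% of all genes tested. Genes that rose made up 0.861% and genes that fell 0.761% of all genes tested. Before adjustment 11 members had an edgeR p under 0.05, a threshold at which the share of all genes is not given. The median log2 fold change was 0.09. The libraries did not overlap in 13 of the 51 genes, 9 of them higher in sr45a, beside 24.1% of all genes tested. The count was 0 without WT replicate 1, 2 or 3 or sr45a replicate 1 or 2, it was 1 without sr45a replicate 3 and 8 without SR45a-1a-OE replicate 3, and it was 4 without replicate 3 of both SR45a-1a-OE and sr45a. Of all genes tested, 0.521% to 0.743% were called in the fits that gave 0, and 1.06%, 2.38% and 1.80% in the other three in that order.

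The comparisons of SR45a-1a-OE and of sr45a with WT share the WT libraries, so their values for a gene are not independent. Side by side, PME41 went down in one and up in the other, while AT1G62770, UNE11 and AT1G02816 passed in the same direction in both.

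The direct comparison of SR45a-1a-OE with sr45a gave 10 genes lower in SR45a-1a-OE and 0 higher, which is 19.6% of the 51 genes beside 7.26% of all genes tested, in the edgeR test. Genes higher made up 2.81% and genes lower 4.45% of all genes tested. Among the members higher in SR45a-1a-OE, 1 had an unadjusted p under 0.05, and 3 were called without replicate 3 of both groups. The lower genes were 7 long enzymes (AT3G49220, AT3G10720, PME44, AT1G02810, ATPMEPCRD, PME12 and PME41), the short enzyme PME5 and the inhibitors AT4G25260 and AT1G23205. PME41 differed most, and AT1G23205 followed at -1.80 on the log2 scale (standard error 0.29, adjusted p = 0.00613). The libraries did not overlap in 17 of the 51 genes, 16 of them lower, beside 25.2% of all genes tested. The count was 4 without SR45a-1a-OE replicate 1, when 1.48% of all genes tested were called, 4 without sr45a replicate 1, when 1.33% were, and 17 without replicate 3 of both groups, when 20.5% of all genes tested were called.

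Replicate 3 stood apart in these genes as it did over all genes. Among the 14 genes that fell in SR45a-1a-OE, replicate 3 was the highest of the 3 SR45a-1a-OE libraries in 11, and sr45a replicate 3 was the lowest of the 3 sr45a libraries in 13. Which property of the libraries this follows was not tested.

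Several members are neighbours in the genome, and 10 pairs lie within 10000 bp of each other. In SR45a-1a-OE against WT both genes were called in 2 of these pairs, in opposite directions, and in the other 8 at least 1 gene was not called. AT1G02810, an enzyme, and AT1G02816, a DUF538 gene, lie 950 bp apart on the same strand of chromosome 1 with log2 fold changes of -0.76 and 0.60 in SR45a-1a-OE, both called. PME41 and the DUF538 gene AT4G02370 lie 7179 bp apart on chromosome 4 with -1.56 and 0.35, both called. The enzymes AT5G04960 and AT5G04970 face each other with 12 bp between their ends on chromosome 5, and had -0.52, called, and 0.83, not called. The inhibitors AT1G62770 and AT1G62760, 7190 bp apart, had -1.08, called, and 1.16, not called. Values of the same sign, none of them called, were 0.76 and 0.62 in AT3G17220 (PMEI2) and AT3G17225, and 0.48 and 0.42 in AT3G47380 and AT3G47400. No test of neighbours was made.

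The 250 bases before the annotated gene start are shown for ATPMEPCRD, the enzyme with the largest fall against WT in the fit of all 9 libraries, chosen after its values were seen. They were read from the RefSeq TAIR10.1 genome, 5′ to 3′ on the plus strand, at chr2:17902120-17902369.
ATPMEPCRD: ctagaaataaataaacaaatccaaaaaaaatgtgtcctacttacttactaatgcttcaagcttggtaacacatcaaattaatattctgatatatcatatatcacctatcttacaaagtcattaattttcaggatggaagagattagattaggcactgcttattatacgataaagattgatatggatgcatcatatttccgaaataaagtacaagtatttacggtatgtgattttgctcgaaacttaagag
Both strands of this window were searched in all 51 genes for GAANNTTC and TTCNNGAA, which are forms of the heat shock element. They were searched in the same way for the G-box, whose letters are CACGTG. The auxin response element searched was TGTCTC and the TATA box was TATAAA. In ATPMEPCRD none of the letters searched were present. The first heat shock element form was in 4 of the 51 windows and in 9.55% of those of all 27443 protein-coding genes, and the second form in 1 window and 7.68%. The G-box was in 3 windows and 6.49% of all, the auxin response element in 5 and 10.9%, and the TATA box in 30 and 47.3%. Of the 14 genes that fell in SR45a-1a-OE, 1 held the first heat shock element form, 0 the second, 1 the G-box, 3 the auxin response element and 8 the TATA box.

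The transcript tables listed 64 transcripts of the 51 genes, with 41 genes having 1 transcript and 10 having more. Of the 56 transcripts tested, edgeR called 0 in each of the 3 comparisons, and the smallest adjusted p was 0.0806 in SR45a-1a-OE against WT. In that comparison 21 had an unadjusted p under 0.05 and DESeq2 called 17, in sr45a against WT 11 and 5, and in SR45a-1a-OE against sr45a 13 and 9. Over all 35975 transcripts tested, edgeR called 0.0389% in the first, 0.0556% in the second and 0.0667% in the third. No share of all transcripts is given for the DESeq2 calls or the unadjusted p, so the edgeR shares are not their background.

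In the 3 genes that fell and had more than 1 listed transcript, 1 transcript carried most of the level. AT3G10720.2 held 96.8% to 99.4% of the transcript FPKM of its gene, AT4G33220.1 of PME44 held 89.9% to 95.7%, and AT3G49220.1 held 89.2% to 95.0%. Deposited transcript FPKM do not add up to the gene FPKM, and the deposited transcript counts of a library came to 3.79 to 3.87 times its gene counts, which limits what the transcript tests can show. AT5G62350.1, the one listed transcript of AT5G62350, was at 1.77, 55.5 and 224 FPKM in SR45a-1a-OE, where the gene was at 215, 231 and 218. AT3G47670.1 was at 0.0663, 13.4 and 0.0436 FPKM in SR45a-1a-OE, where the gene was at 8.56, 9.59 and 9.92. AT5G47500.1 of PME5 was at 4.74, 4.35 and 2.33 FPKM in sr45a and at 1.59 to 2.25 in WT, whereas the gene FPKM of these groups overlapped. In PMEPCRF the transcript shares followed the replicate number and not the genotype. AT5G53370.1 was at 18.8, 18.7 and 23.8 FPKM in replicate 1 of WT, SR45a-1a-OE and sr45a, and between 0.382 and 0.593 in the other libraries, where AT5G53370.2 took 97.7% to 98.4%. The gene FPKM of PMEPCRF ran without such a step, from 13.5 to 21.8. The inhibitor transcript AT5G20740.1 was at 4.21 and 4.18 FPKM in sr45a replicates 1 and 2 and listed at 0 in the other 7 libraries.

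Other genes of pectin metabolism were described by lists, drawn from words in their descriptions or from named loci. Genes of the same families that are described in other words are left out, so the lists are not whole families. Pectin acetylesterases, which remove acetyl groups from pectin, numbered 11, of which 10 were tested: 4 fell and 0 rose in SR45a-1a-OE against WT, with a median log2 fold change of -0.35, so that 40.0% were called beside 15.3% of all genes tested. AT3G05910 went from 74.2 ± 4.85 CPM in WT to 40.8 ± 3.39 (SD, n = 3), which on the log2 scale is -0.86 (standard error 0.14, edgeR adjusted p = 0.00478). AT5G23870 had -1.25 (standard error 0.21, adjusted p = 0.00531) and AT2G46930 -0.52 (standard error 0.14, adjusted p = 0.0292). None passed in sr45a against WT, where edgeR called 0 of the genes on all 5 lists of other pectin genes, 8 had an unadjusted p under 0.05 and DESeq2 called 1.

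The list for homogalacturonan synthesis and methylation held 26 genes, all tested. Most were taken by the word galacturonosyltransferase in their description, so a part in homogalacturonan synthesis is not established for each. In SR45a-1a-OE against WT 3 fell and 1 rose, with a median log2 fold change of -0.09. The share called, 15.4%, is close to the 15.3% of all genes tested. GATL6, of the galacturonosyltransferase-like family, went from 49.5 ± 1.65 to 23.3 ± 5.77 CPM, -1.09 on the log2 scale (standard error 0.17, edgeR adjusted p = 0.00392). GAUT4, which in Arabidopsis is a galacturonosyltransferase of homogalacturonan synthesis, had -0.39 (adjusted p = 0.0203), and AT3G49720 had -0.50 (adjusted p = 0.0404). QUA1, a galacturonosyltransferase gene needed for cell adhesion, rose by 0.39 (adjusted p = 0.0419).

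Genes described as polygalacturonases, which cut demethylated pectin, numbered 5, of which 3 were tested. By edgeR 0 passed against WT, with 2 at an unadjusted p under 0.05 in SR45a-1a-OE and 1 in sr45a. The highest was PG2 at 34.2 FPKM, with -0.40 in SR45a-1a-OE (edgeR adjusted p = 0.111). PGAZAT (AT2G41850), the ADPG2 polygalacturonase of organ separation, was lower in SR45a-1a-OE than in sr45a by a log2 fold change of -2.61 (adjusted p = 0.00745), from low levels of 0.253 ± 0.0238 and 1.57 ± 0.611 CPM. Of the 5 genes described as pectate lyases 2 were tested and 0 passed against WT by edgeR, with 1 at an unadjusted p under 0.05 in each comparison. AT1G67750, the highest in FPKM, had a log2 fold change of 0.73 in sr45a (adjusted p = 0.0745). Among 4 processing and control genes 1 fell in SR45a-1a-OE: ARA12, the subtilase that in Arabidopsis seed coats acts on pectin methylesterification, went from 159 ± 4.49 CPM in WT to 105 ± 14.3, which on the log2 scale is -0.60 (standard error 0.12, adjusted p = 0.00995).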

How the data were processed

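The 9 libraries (3 per genotype) were analysed. Per the labels' protocols, Trizol RNA was sequenced as 150-bp paired reads and trimmed with fastp to a minimum length of 36 bp. The authors deposited a whole-number count and an FPKM per gene and per transcript; the aligner, counting program, build and strand setting are not given in the sources used here. Deposited gene coordinates equalled TAIR10.1 for 26961 of 26968 loci. Members and gene lists were chosen with earlier results of these data known. Classes rest on description and coding length, since a protein motif search missed known enzymes. Genes were tested with edgeR 4.0.16 (R 4.3.3): TMM, filterByExpr (minimum count 10, minimum total 15), 1 quasi-likelihood fit of 9 libraries, two-sided, Benjamini-Hochberg over 20103 genes. CPM use TMM-scaled library sizes. SEs were derived from F statistics. The procedure was tested on simulated data. Alternatives used DESeq2 1.42.0, limma 3.58.1 on log2(FPKM + 1) and log2(FPKM + 0.1), other filters, size factors, 6-library fits, a replicate block, a log2 fold change of at least 1 and libraries left out. Values in every library are given for members called in any comparison, the 5 loci named by the rule and the 5 most abundant; from other lists, the 3 called genes with the smallest p or the most abundant. The rest were chosen after their values were seen.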

Additional observations from a re-analysis of the deposited data

How the results depend on the processing

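Of the named members' fold changes, 925 alternative values kept direction and side of the threshold, 120 were no longer past it, 19 newly past it and 19 reversed. Leaving out 1 library, members called ranged over 8–19 (SR45a-1a-OE against WT; 2–5 higher, 6–14 lower), 0–8 (sr45a against WT; 0–4 higher, 0–4 lower) and 4–12 (SR45a-1a-OE against sr45a; 0–0 higher, 4–12 lower); other pectin genes called, 9, 0 and 6 in the main fit, ranged over 4–15, 0–1 and 3–10; transcripts stayed at 0. Those fits without 1 library called 4.8% to 19.4%, 0.521% to 2.38% and 1.33% to 13.1% of all genes tested, in that order of comparisons. For the fold-change rule, the replicate block, DESeq2, limma, the 6-library fits and the filters, no share of all genes called is given. Member counts there cannot be set against genes in general. Requiring a log2 change of 1 left 8 (1 higher, 7 lower), 1 (1 higher, 0 lower) and 5 lower members. It left 2 and 3 other pectin genes in SR45a-1a-OE against WT and against sr45a. Without both replicates 3, members called in SR45a-1a-OE against sr45a were 17 (3 higher), those lower in sr45a 0, other pectin genes 15, 1 and 18, and transcripts 2 and 1 in the comparisons of SR45a-1a-OE with WT and sr45a. In sr45a against WT, DESeq2 and the 6-library fit each called 7 members (3 lower) and 1 and 2 other pectin genes; no filter gave 2 lower, and limma with either pseudocount 0. DESeq2 called 17, 5 and 9 transcripts; limma called 1 with 0.1 against WT, and 1 with either pseudocount against sr45a.

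Over gene counts the replicate numbers did not pair the libraries (same-number correlations -0.33 to 0.19), although the transcript shares of PMEPCRF followed the number. The replicate block gave 14, 2 and 7 members (0 lower in sr45a) and 4 other pectin genes in SR45a-1a-OE against WT.

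The reversed values were all small and uncalled. In sr45a against WT, leaving out 1 library gave -0.069 to 0.23 in AT2G26440, -0.11 to 0.033 in AT3G14310, -0.11 to 0.023 in AT3G49220, -0.00186 to 0.15 in AT4G02370, -0.26 to 0.024 in AT4G25260 and -0.27 to 0.040 in AT5G47500. Without both replicates 3 they were 0.033 in AT3G14310, 0.011 in AT3G49220, -0.00154 in AT4G02370, 0.025 in AT4G25260 and 0.040 in AT5G47500. In SR45a-1a-OE against sr45a, AT5G04960 gave -0.063 to 0.15 with 1 library left out and -0.045 and -0.050 with limma (pseudocounts 1 and 0.1), and AT5G62350 gave 0.0091 without both replicates 3. The cause was not tested. A minimum of 30 or 300 summed counts would give 57 or 40 members. Low counts limit PME41 and the 8 genes under 1 FPKM.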

Other observations

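Among the inhibitor-family rows under the minimum of 90 counts, AT5G46940 was picked out after its values were seen. It had 2, 1 and 3 counts in WT, 0 in each SR45a-1a-OE library and 7, 6 and 5 in sr45a. It was not tested, and with 24 counts in all its levels are at the limit of this depth.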
